A study of Homo sapiens with 12 samples.

Results

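A set of 10 genes of the BCL2 family were followed by their Ensembl IDs in an RNA-seq gene count table of human prostate cancer cell lines: BCL2, BCL2L1, BCL2L2, MCL1, BAK1, BID, BAD, BIK, BCL2L11 and BMF. They were chosen by symbol, all 10 had 1 matching entry among the 57992 of the table, and all 10 were among the 15407 genes that passed the filter on low counts. Poly(A)-selected RNA was read as paired 100-base reads, and the study asked about resistance to enzalutamide, an antiandrogen that blocks the androgen receptor, with NOTCH signalling named in its title. The 9 libraries used here were 3 biological replicates each of MR49F, labelled resistant to enzalutamide, and of C4-2 and LNCaP, both labelled sensitive. LNCaP is an androgen-responsive line from a lymph node metastasis, C4-2 is its castration-resistant subline, and MR49F is its enzalutamide-resistant derivative. C4-2R, the other resistant line of the labels, was not analysed here. Each line is a single line, so resistance and any other property that sets MR49F apart from LNCaP cannot be told apart, and p-values measure the spread between cultures of 1 line. Whether enzalutamide was in the medium at harvest is not given in the sources used here.

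BCL2 family proteins decide whether the outer membrane of the mitochondrion stays intact. The survival proteins BCL2, BCL-xL (from BCL2L1), BCL-w (from BCL2L2) and MCL1 hold the pore-forming effectors BAK and BAX in check. BH3-only proteins such as BID, BAD, BIK, BIM (from BCL2L11) and BMF bind survival proteins or, in the case of BID and BIM, can also engage the effectors directly. When the pores open, cytochrome c reaches the cytosol and caspases are activated. Much of this control acts on the proteins, by phosphorylation, cleavage or degradation, and is not seen in RNA. In prostate cancer, BCL2 is known for higher levels after androgen withdrawal.

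Total gene counts ran from 6990461 to 42770072 per library. C4-2 replicate 1, the deepest, stood apart in depth from the other libraries, which had at most 9375912. Every replicate pair differed by more than counting noise (chi-square per degree of freedom 1.46 to 19.3, a measure that grows with depth). Within lines, log2 CPM correlated across genes at 0.987 to 0.993, where genes are not independent replicates. All 8 luminal prostate markers exceeded 1 CPM in each line, summing to between 8370 and 8610 CPM in MR49F, 6900 and 7930 CPM in C4-2, and 5720 and 5880 CPM in LNCaP. Fibroblast markers summed to at most 8.67 CPM in MR49F, 25.8 CPM in C4-2 and 29.5 CPM in LNCaP, endothelial ones to at most 0.807, 3.36 and 4.82 CPM, and immune ones to at most 2.14, 4.78 and 0.427 CPM in the same order of lines. The fibroblast genes COL1A2 and PDGFRA, the endothelial gene CDH5 and the T cell gene CD3E had no count in any library. Other markers of these lists were detected. The fibroblast gene COL1A1 averaged 5.72 CPM in MR49F, 16.5 CPM in C4-2 and 25.4 CPM in LNCaP. COL3A1 averaged 6.05 CPM in C4-2, and LUM 1.91 CPM in MR49F. The endothelial gene VWF averaged 3.92 CPM in LNCaP, and CD8A, another T cell gene, 3.36 CPM in C4-2.

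By the test of any difference among the lines, BMF, BCL2 and BAD had the lowest p-values of the 10 genes. Their promoter stretches are shown because BCL2 and BAD were ordered MR49F above LNCaP above C4-2, while BMF was ordered the other way round. RefSeq promoter windows (GRCh38.p14) were found for 7 of the 10 genes, and each covers 250 bases before and 50 bases from the first transcribed base, counted as position 1. Capitals mark matches on either strand to a GC box (GGGCGG), which 45% of 35116 human promoters of this length hold, or to the core of an RBPJ site (TGGGAA), the DNA sequence bound by the factor that carries Notch signals, held by 24%. The androgen response half-site AGAACA, held by 14.8%, was searched as well and had no match in these stretches.
BCL2, chr18:63319720-63320019, minus strand: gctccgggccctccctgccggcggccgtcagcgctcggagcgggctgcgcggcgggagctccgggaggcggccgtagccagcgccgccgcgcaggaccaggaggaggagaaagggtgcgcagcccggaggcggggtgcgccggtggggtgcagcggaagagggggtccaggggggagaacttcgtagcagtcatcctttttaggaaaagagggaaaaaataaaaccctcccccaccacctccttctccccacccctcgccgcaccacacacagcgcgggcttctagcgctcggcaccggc
BAD, chr11:64284655-64284954, minus strand: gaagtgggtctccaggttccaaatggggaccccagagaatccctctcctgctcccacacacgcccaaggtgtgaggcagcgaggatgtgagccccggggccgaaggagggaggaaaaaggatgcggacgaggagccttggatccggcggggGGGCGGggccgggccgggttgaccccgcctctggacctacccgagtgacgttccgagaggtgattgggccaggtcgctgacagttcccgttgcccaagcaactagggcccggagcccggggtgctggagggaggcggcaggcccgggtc
BMF, chr15:40108830-40109129, minus strand: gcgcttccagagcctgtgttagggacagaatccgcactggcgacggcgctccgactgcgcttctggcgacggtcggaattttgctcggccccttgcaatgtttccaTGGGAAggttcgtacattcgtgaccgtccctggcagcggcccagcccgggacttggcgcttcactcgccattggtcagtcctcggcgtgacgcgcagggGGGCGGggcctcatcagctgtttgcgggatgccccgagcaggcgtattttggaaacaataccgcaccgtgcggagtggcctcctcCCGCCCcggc
The BCL2 stretch, 70.7% G and C, held none of these motifs. The BAD stretch held 1 GC box at position -99, and a second start listed for BAD, which overlaps it, held the same box at -138. The BMF stretch held an RBPJ core at -144 and GC boxes at -45 and 41, whereas the other start listed for BMF held none of the 3 motifs. The RBPJ core was not particular to BMF. Windows of BAK1 (-140) and of 2 starts of BID (-67 and -237) held it as well. GC boxes were also matched in windows of BCL2L1, BAK1, BID and BCL2L11. These are matches of letters, and no binding was measured.

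Within a line, MCL1 was the most abundant of the 10 genes per length of exon, and BCL2 or BMF the least. MCL1 averaged 58.4 ± 5.1 CPM per kb of exon in MR49F, 51.1 ± 3.22 in C4-2 and 66.8 ± 1.43 in LNCaP (SD, n = 3 each). BCL2L1 came second in every line, with mean levels between 25.7 and 26.7 CPM per kb. BCL2 itself stood last in C4-2, at 0.411 ± 0.0561 CPM per kb, and in LNCaP, at 0.717 ± 0.0593. In MR49F the last place fell to BMF, at 1.18 ± 0.0942 CPM per kb, whose replicates overlapped those of BCL2 at 1.33 ± 0.122. BAD followed BCL2L1 in MR49F, with 20.2 ± 4.66 CPM per kb and overlapping replicates, and stood lower in the order in C4-2, with 7.3 ± 1.63, and in LNCaP, with 11.2 ± 1.08, where BCL2L2 preceded it. In C4-2 the levels of BIK, BAD, BAK1 and BCL2L11 each overlapped the next in order, while BMF, which followed BCL2L11, did not overlap BID after it. With the longest transcript of each gene as its length, the order below the first 3 genes in C4-2 was different, and BID came before BCL2L11 and BAK1 in MR49F and LNCaP.

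**Figure D1:**
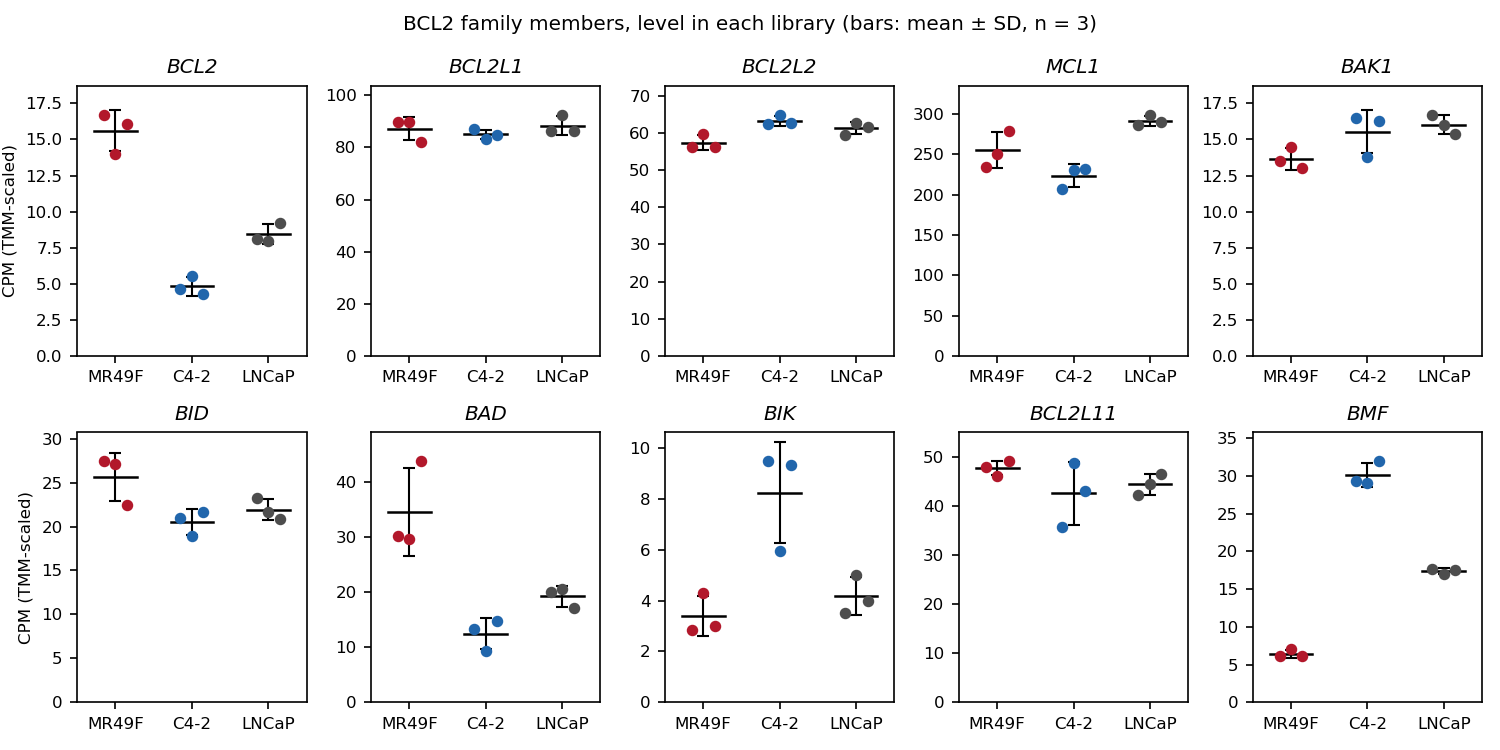
Level of each BCL2 family gene in CPM on TMM-scaled library sizes (vertical axes, linear, from 0, 1 panel per gene) in each of 3 libraries of MR49F, C4-2 and LNCaP; points are libraries and bars are the mean ± SD. BCL2 and BAD are highest in MR49F, BMF and BIK are highest in C4-2, and BCL2L1 and BCL2L2 lie within a narrow range in every line.

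Among survival genes, BCL2 (ENSG00000171791, GRCh38 chr18:63123346-63320128, minus strand), the founding member of the family, separated the 3 lines. It had 16.7, 14 and 16.1 CPM in MR49F, 4.64, 5.57 and 4.29 CPM in C4-2, and 8.12, 7.95 and 9.24 CPM in LNCaP. Every MR49F library exceeded every LNCaP library, and every C4-2 library lay under them. BCL2 was 1.86-fold higher in MR49F than in LNCaP (log2 fold change 0.90, SE 0.144, adjusted p = 3.02e-05, edgeR quasi-likelihood test with Benjamini-Hochberg adjustment, as for all adjusted p-values here). In C4-2 it was 1.76-fold lower than in LNCaP (log2 fold change -0.81, SE 0.159, adjusted p = 0.000249). MR49F exceeded C4-2 by 3.27-fold (log2 fold change 1.71, SE 0.146, adjusted p = 2.97e-09). In bulk RNA, a change in every cell and a change in a part of the cells cannot be told apart.

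MCL1 (GRCh38 chr1:150574551-150579738), which encodes a short-lived survival protein, was lower in C4-2 than in LNCaP. Its level was 235, 251 and 279 CPM in MR49F, 207, 231 and 232 CPM in C4-2, and 287, 299 and 290 CPM in LNCaP. No MR49F or C4-2 library reached the lowest LNCaP library. The decrease in C4-2 against LNCaP was 1.31-fold (log2 fold change -0.39, SE 0.08, adjusted p = 0.000416). For MR49F against LNCaP the log2 fold change was -0.19 with a 95% interval of -0.36 to -0.03 and an adjusted p of 0.0513 by edgeR, which missed the threshold of 0.05. It passed the threshold without MR49F replicate 3 (log2 fold change -0.27, edgeR adjusted p = 0.00945), without C4-2 replicate 1 (-0.19, 0.00883) or without C4-2 replicate 2 (-0.21, 0.0246), and in 10 of 19 alternatives in all. MR49F exceeded C4-2 at an adjusted p of 0.0415 by edgeR (log2 fold change 0.19, SE 0.08). That call was lost without MR49F replicate 2 (log2 fold change 0.21, edgeR adjusted p = 0.0648), MR49F replicate 3 (0.12, 0.178) or C4-2 replicate 1 (0.14, 0.0856), and without any of the LNCaP replicates (0.19, adjusted p 0.0624 to 0.0635). In all, it was lost in 10 of 19 alternatives.

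BCL2L1 and BCL2L2 differed little. BCL2L1, the source of BCL-xL, had 89.9, 89.7 and 82 CPM in MR49F, 87, 83.3 and 84.8 CPM in C4-2, and 86.4, 92.5 and 86.2 CPM in LNCaP. The libraries of the 3 lines overlapped. Its log2 fold change was -0.02 for MR49F against LNCaP (95% interval -0.19 to 0.15) and -0.05 for C4-2 against LNCaP (-0.22 to 0.11), and 0.03 for MR49F against C4-2 (-0.13 to 0.20), with edgeR adjusted p-values of 0.865, 0.602 and 0.73. Counts per gene do not separate the long survival form of BCL2L1 from its short pro-death splice form. The antisense RNA ABALON, which overlaps 43% of its exon length, averaged at most 0.0365 CPM in any line. Unless counting used strand, reads in the overlap may have been lost to both genes. The low count of ABALON cannot show whether BCL2L1 lost reads.

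BCL2L2, the source of BCL-w, had 56.1, 59.7 and 56.2 CPM in MR49F, 62.3, 64.8 and 62.5 CPM in C4-2, and 59.4, 62.7 and 61.6 CPM in LNCaP. All MR49F libraries lay under all C4-2 libraries, and both lines overlapped LNCaP. The log2 fold change of BCL2L2 was -0.14 for MR49F against C4-2 (95% interval -0.31 to 0.03, edgeR adjusted p = 0.147), -0.09 for MR49F against LNCaP (-0.27 to 0.08) and 0.04 for C4-2 against LNCaP (-0.12 to 0.21). The readthrough gene BCL2L2-PABPN1 shares 19.4% of the exon length of BCL2L2 on the same strand and averaged 1.75 ± 0.396 CPM in MR49F, 0.697 ± 0.481 in C4-2 and 1.88 ± 0.542 in LNCaP (SD, n = 3 each).

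BAK1, which encodes the effector BAK of the outer mitochondrial membrane, passed no test. It had 13.5, 14.5 and 13 CPM in MR49F, 16.5, 13.8 and 16.3 CPM in C4-2, and 16.7, 16 and 15.4 CPM in LNCaP. The MR49F libraries all lay under the LNCaP libraries, with a log2 fold change of -0.23 (95% interval -0.50 to 0.03, edgeR adjusted p = 0.132). C4-2 overlapped both other lines, at -0.03 against LNCaP (-0.28 to 0.21) and with -0.20 for MR49F against C4-2 (-0.45 to 0.05) on the log2 scale. Scaled by library totals alone, without TMM factors, BAK1 did pass in MR49F against LNCaP (log2 fold change -0.32, edgeR adjusted p = 0.0395).

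Among BH3-only genes, BMF (ENSG00000104081, GRCh38 chr15:40087890-40108892, minus strand) had the lowest p of the 10 genes. Its product is known for being released from dynein light chains of the cytoskeleton under stress. BMF had 6.13, 7.01 and 6.11 CPM in MR49F, 29.3, 29 and 31.9 CPM in C4-2, and 17.7, 17 and 17.5 CPM in LNCaP. The 3 lines did not overlap, with MR49F lowest and C4-2 highest. BMF was 2.72-fold lower in MR49F than in LNCaP (log2 fold change -1.44, SE 0.131, adjusted p = 1.44e-08 by edgeR). It was 1.72-fold higher in C4-2 than in LNCaP (log2 fold change 0.78, SE 0.107, adjusted p = 4e-06 by edgeR). Between MR49F and C4-2 the difference was 4.67-fold, lower in MR49F (log2 fold change -2.22, SE 0.122, adjusted p = 2.68e-12 by edgeR).

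BAD (ENSG00000002330, GRCh38 chr11:64269830-64284704, minus strand) encodes a BH3-only protein that survival kinases silence by phosphorylation. Its levels were 30.1, 29.7 and 43.7 CPM in MR49F, 13.3, 9.36 and 14.7 CPM in C4-2, and 20.1, 20.5 and 17.1 CPM in LNCaP. The lines did not overlap, and MR49F replicate 3 stood above the other MR49F libraries. BAD was 1.79-fold higher in MR49F than in LNCaP (log2 fold change 0.84, SE 0.154, adjusted p = 0.000143 by edgeR) and 1.53-fold lower in C4-2 than in LNCaP (log2 fold change -0.61, SE 0.164, adjusted p = 0.00398 by edgeR). MR49F exceeded C4-2 by 2.73-fold (log2 fold change 1.45, SE 0.155, adjusted p = 8.63e-08 by edgeR). The gene GPR137 overlaps 23.7% of the exon length of BAD on the other strand and averaged 31.7 CPM in MR49F, 30.1 CPM in C4-2 and 33.6 CPM in LNCaP, so the counts of BAD are uncertain unless counting used strand, and this is not given in the sources used here.

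BIK (ENSG00000100290, GRCh38 chr22:43110748-43129712, plus strand), whose product sits mainly at the endoplasmic reticulum, was raised in C4-2. It had 2.85, 4.28 and 3 CPM in MR49F, 9.46, 5.95 and 9.3 CPM in C4-2, and 3.52, 5 and 4 CPM in LNCaP. All C4-2 libraries lay above the others, while MR49F and LNCaP overlapped. BIK was 2.03-fold higher in C4-2 than in LNCaP (log2 fold change 1.02, SE 0.206, adjusted p = 0.00034 by edgeR) and 2.52-fold lower in MR49F than in C4-2 (log2 fold change -1.34, SE 0.213, adjusted p = 1.69e-05 by edgeR). For MR49F against LNCaP the log2 fold change was -0.31, with a 95% interval of -0.83 to 0.21, the widest of the 10 genes in that comparison.

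BID, which caspase-8 cuts to link death receptors to mitochondria, was higher in MR49F than in C4-2. Its levels were 27.4, 27.1 and 22.5 CPM in MR49F, 21, 18.9 and 21.7 CPM in C4-2, and 23.2, 21.7 and 20.8 CPM in LNCaP. MR49F and C4-2 did not overlap, and LNCaP overlapped both. The log2 fold change of MR49F against C4-2 was 0.32 (SE 0.11, edgeR adjusted p = 0.0172), and the call was lost without MR49F replicate 1 (0.27, adjusted p = 0.0791), MR49F replicate 2 (0.28, 0.0676) or C4-2 replicate 2 (0.26, 0.0525). In all, that call was lost in 5 of 19 alternatives. Against LNCaP, BID had a log2 fold change of 0.23 in MR49F (95% interval -0.01 to 0.46, edgeR adjusted p = 0.109), which passed only without MR49F replicate 3 (0.30, 0.0426), and of -0.09 in C4-2 (-0.33 to 0.14).

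BCL2L11, the source of BIM, passed no test. It had 48, 46.2 and 49.1 CPM in MR49F, 35.8, 48.8 and 43.1 CPM in C4-2, and 42.2, 44.6 and 46.5 CPM in LNCaP. All 3 lines overlapped, and the lowest library of all was C4-2 replicate 1. The log2 fold change of BCL2L11 was 0.11 for MR49F against LNCaP (95% interval -0.11 to 0.33), -0.09 for C4-2 against LNCaP (-0.31 to 0.14) and 0.19 for MR49F against C4-2 (-0.03 to 0.41, edgeR adjusted p = 0.12). Without C4-2 replicate 2 the last of these passed (0.30, adjusted p = 0.0111). The long non-coding gene MIR4435-2HG overlaps 10.9% of its exon length on the other strand and averaged 0.151 CPM in MR49F, 3.19 CPM in C4-2 and 0.157 CPM in LNCaP.

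**Figure D2:**
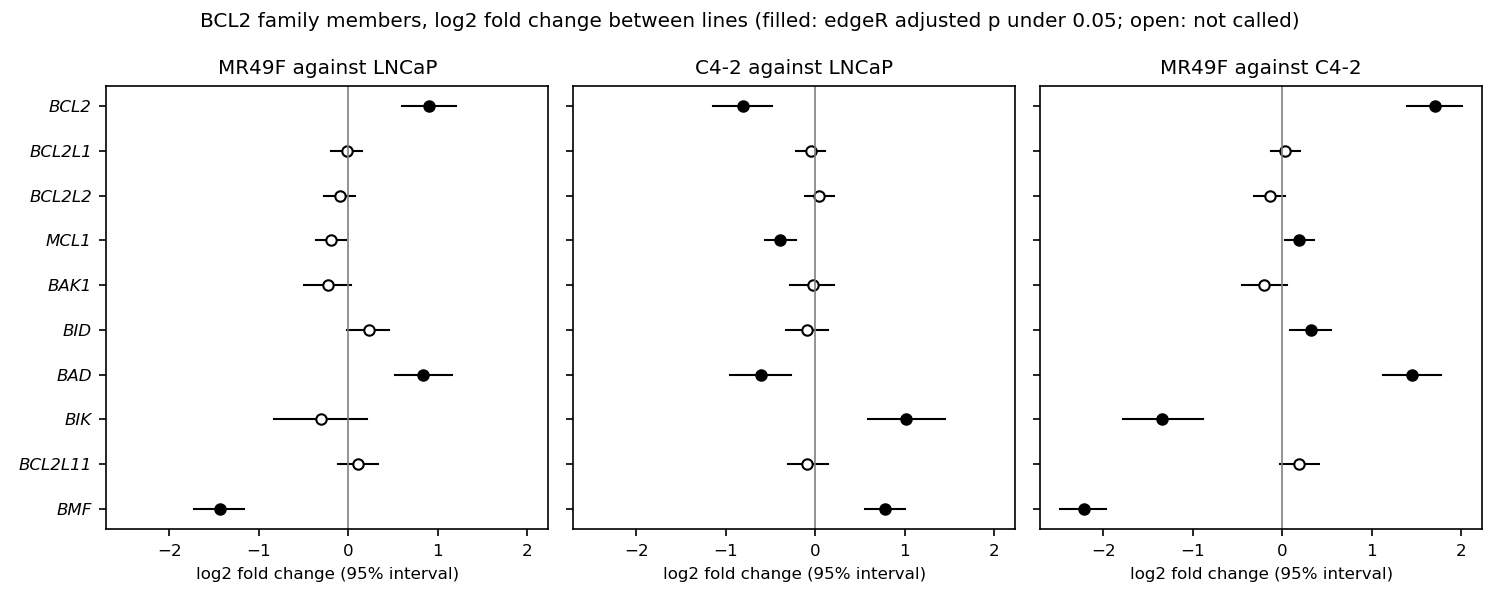
Log2 fold change of each BCL2 family gene for MR49F against LNCaP, C4-2 against LNCaP and MR49F against C4-2 from the edgeR fit; horizontal bars are 95% intervals, filled points have an adjusted p under 0.05 and open points do not. BCL2 and BAD lie right of 0 in MR49F against LNCaP and left of 0 in C4-2 against LNCaP, and BMF lies on the opposite sides.

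The share of the 10 genes that was called lay near or under that of all genes. Against LNCaP, 2 rose in MR49F (BCL2 and BAD), 1 fell (BMF) and 7 did not pass, where 47.0% of all 15407 tested genes were called (24.1% higher and 22.8% lower). In C4-2 against LNCaP, 2 rose (BMF and BIK), 3 fell (BCL2, BAD and MCL1) and 5 did not pass, against 49.7% of all genes called (26.2% higher and 23.5% lower). Between MR49F and C4-2, 4 were higher in MR49F (BCL2, BAD, BID and MCL1), 2 were lower (BMF and BIK) and 4 did not pass, against 61.0% of all genes called (29.9% higher and 31.1% lower). The test of any difference among the 3 lines called 6 of the 10 genes, against 73.3% of all genes. Libraries did not overlap for 5 of the 10 genes in MR49F against LNCaP (59.8% of all genes), 5 in C4-2 against LNCaP (55.7%) and 7 in MR49F against C4-2 (61.9%). Called changes beyond 2-fold were BMF, lower, in MR49F against LNCaP (7.53% of all genes were called beyond 2-fold lower and 5.65% higher) and BIK, higher, in C4-2 against LNCaP (9.12% higher and 4.08% lower). In MR49F against C4-2 they were BCL2 and BAD, higher (6.46% of all genes), and BMF and BIK, lower (12.1%). The median absolute log2 fold change of the 10 genes was 0.23, 0.24 and 0.26 in these comparisons, against 0.31, 0.32 and 0.41 over all tested genes, and the median signed one was -0.06, -0.07 and 0.11 against 0.01, 0.00 and 0.00. The first pair of comparisons shares the LNCaP libraries, so values on either side of LNCaP are not independent.

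Leaving out the deep library, C4-2 replicate 1, kept the same 5 calls in C4-2 against LNCaP: BCL2 at a log2 fold change of -0.76, BAD at -0.69, MCL1 at -0.33, BIK at 0.85 and BMF at 0.80 (edgeR adjusted p at most 0.00556). In MR49F against C4-2 it kept BCL2 at 1.66, BAD at 1.53, BID at 0.34, BIK at -1.16 and BMF at -2.24 (edgeR adjusted p at most 0.016), while MCL1 no longer passed.

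Levels per kb of exon were summed by role, leaving out BAK1. The 4 survival genes summed to 99.7 ± 3.84 CPM per kb in MR49F, 92.3 ± 2.9 in C4-2 and 109 ± 2.8 in LNCaP (SD, n = 3 each). The 5 BH3-only genes summed to 37.9 ± 3.87 CPM per kb in MR49F, 32.5 ± 3.55 in C4-2 and 30.4 ± 1.44 in LNCaP. The ratio of the BH3-only sum to the survival sum was 0.379 ± 0.0259 in MR49F, 0.352 ± 0.041 in C4-2 and 0.28 ± 0.00869 in LNCaP. Its range was 0.362 to 0.409 in MR49F and 0.305 to 0.379 in C4-2, against 0.27 to 0.285 in LNCaP, while MR49F and C4-2 overlapped. No test of this ratio was made. BAD enters the BH3-only sum and BCL2L1 the survival sum. The sums and the ratio thus carry the uncertainty of both counts, from the overlaps with GPR137 and ABALON. It depends on the genes summed: with PMAIP1, BBC3 and HRK added to the BH3-only sum and BCL2A1 and BCL2L10 to the survival sum, a choice made after seeing the data, it was 0.495 ± 0.0367 in MR49F, 0.432 ± 0.043 in C4-2 and 0.399 ± 0.0177 in LNCaP. The ranges were then 0.467 to 0.537 in MR49F, 0.382 to 0.458 in C4-2 and 0.38 to 0.415 in LNCaP, so that C4-2 overlapped LNCaP and no longer overlapped MR49F. With the longest transcript as length the ratio was 0.465 ± 0.0347 in MR49F, 0.393 ± 0.0437 in C4-2 and 0.332 ± 0.0117 in LNCaP. Its ranges, 0.44 to 0.504, 0.342 to 0.422 and 0.319 to 0.341 in the same order of lines, did not overlap.

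MCL1 held 58.5 ± 2.93% of the survival sum in MR49F, 55.4 ± 1.78% in C4-2 and 61.4 ± 0.269% in LNCaP. BCL2L1 held 26.4 ± 2.28% in MR49F, 27.8 ± 1.48% in C4-2 and 24.5 ± 0.413% in LNCaP, and BCL2L2 held 13.8 ± 0.671%, 16.4 ± 0.438% and 13.4 ± 0.178%. BCL2 held 1.33 ± 0.148%, 0.445 ± 0.0582% and 0.66 ± 0.0629% in the same order of lines. In the BH3-only sum, BAD held 52.9 ± 6.66% in MR49F, 22.3 ± 2.73% in C4-2 and 36.9 ± 2.27% in LNCaP, where the uncertainty of the BAD counts bears on all shares. BIK held 9.45 ± 2.61% in MR49F, 26.4 ± 4.16% in C4-2 and 14.4 ± 2.1% in LNCaP, and BMF held 3.14 ± 0.455%, 17.1 ± 1.31% and 10.5 ± 0.657%. Among these 5 genes BAD had the largest share in MR49F and LNCaP, and BIK in C4-2 by mean, where its replicates overlapped those of BAD and BCL2L11. With the longest transcript as length BAD led in C4-2 too, at 25.3 ± 3.21% against 20.3 ± 3.3% for BIK. Shares within a sum are tied to one another, so a rise of BAD alone lowers the shares of the rest.

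**Figure D3:**
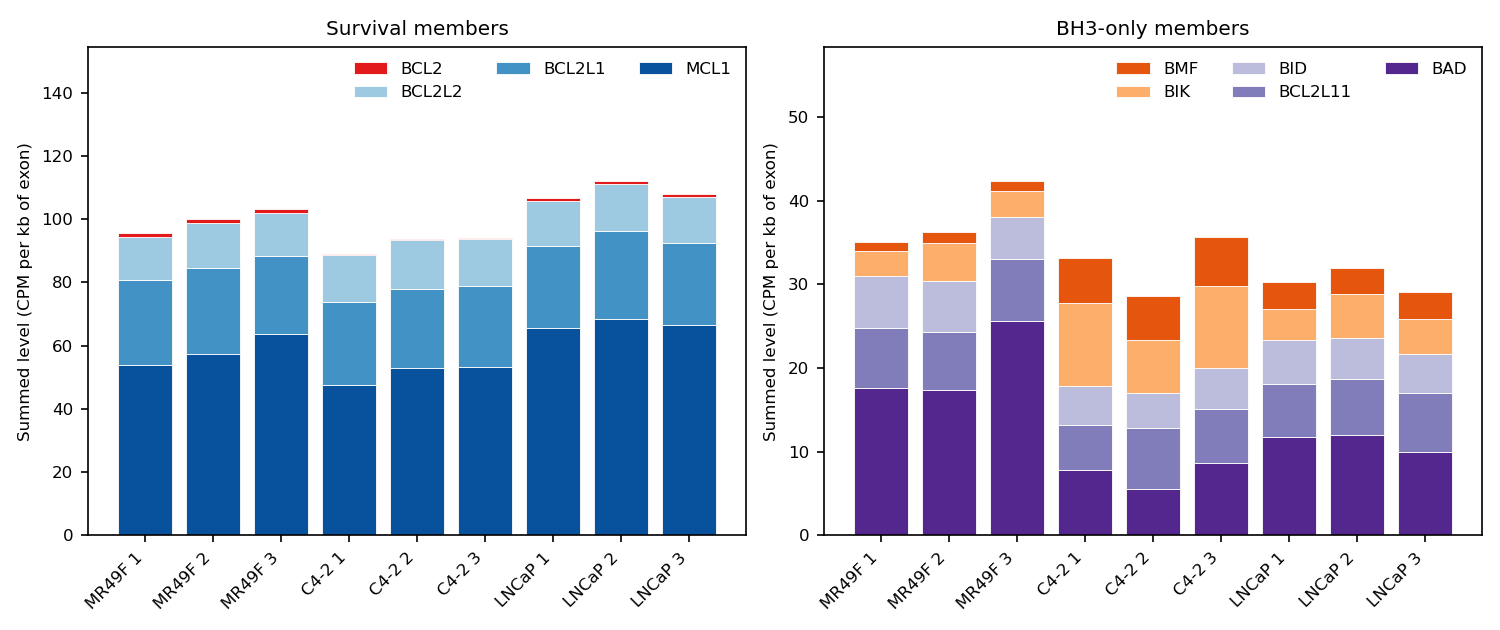
Levels per kb of exon (CPM per kb, vertical axes from 0) of the survival genes (left) and the BH3-only genes (right), stacked in 1 bar for each of 3 libraries of MR49F, C4-2 and LNCaP. By mean over libraries, MCL1 takes between 55.4% and 61.4% of the survival bars in each line, and BAD takes 52.9% of the BH3-only bars in MR49F, 22.3% in C4-2 and 36.9% in LNCaP.

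Of the 13 other BCL2 family genes listed, 9 passed the count filter. BCL2A1 had no count in any library, and BCL2L10, BCL2L15 and HRK averaged at most 0.0954, 0.616 and 0.732 CPM in any line. Against LNCaP, none of the 9 rose in MR49F and 4 fell: BOK, BBC3, BCL2L12 and BCL2L13. In C4-2 against LNCaP, 5 rose (BOK, BCL2L14, BNIP3, BNIP3L and BCL2L12) and 3 fell (PMAIP1, BBC3 and BCL2L13). Between MR49F and C4-2, PMAIP1 was higher in MR49F, and BOK, BCL2L12, BCL2L13, BCL2L14 and BNIP3L were lower. Over all tested genes, 47.0%, 49.7% and 61.0% were called in the 3 comparisons. The median log2 fold change of the 9 was -0.17, 0.29 and -0.33 in the 3 comparisons, against 0.01, 0.00 and 0.00 over all tested genes.

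BOK, an effector relative of BAK, was ordered like BMF. It had 11.5, 10.3 and 7.84 CPM in MR49F, 59.4, 44.5 and 51.9 CPM in C4-2, and 26.3, 28.4 and 25.1 CPM in LNCaP. The lines did not overlap. BOK was 2.69-fold lower in MR49F than in LNCaP (log2 fold change -1.43, edgeR adjusted p = 7.35e-08), 1.98-fold higher in C4-2 than in LNCaP (0.98, 9.27e-07) and 5.31-fold lower in MR49F than in C4-2 (-2.41, 3.94e-12).

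BAX, the effector partner of BAK, averaged 29.6 CPM in MR49F, 29.2 CPM in C4-2 and 33.3 CPM in LNCaP and passed no test. Its log2 fold change was -0.17 for MR49F and -0.15 for C4-2 against LNCaP, and the second passed without C4-2 replicate 1 (-0.33, edgeR adjusted p = 0.0193). Between MR49F and C4-2 it was -0.02, with a sign that turned under 5 alternatives. PMAIP1, the gene of the BH3-only protein NOXA, averaged 23.3 CPM in MR49F, 14.4 CPM in C4-2 and 25.4 CPM in LNCaP. It was 1.77-fold lower in C4-2 than in LNCaP (edgeR adjusted p = 1.87e-05), 1.61-fold higher in MR49F than in C4-2 (9.07e-05), and at -0.13 on the log2 scale in MR49F against LNCaP (0.414).

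BBC3, the gene of the BH3-only protein PUMA and a p53 target, averaged 3.31 CPM in MR49F, 2.8 CPM in C4-2 and 4.92 CPM in LNCaP. Its decrease against LNCaP was -0.79 on the log2 scale in C4-2 (edgeR adjusted p = 0.00507) and -0.58 in MR49F (0.046). The call in C4-2 was lost in 2 of 19 alternatives, 1 of them without LNCaP replicate 2 (-0.52, 0.0813). The call in MR49F was lost in 10 of 19 alternatives, among them without LNCaP replicate 2 (-0.32, 0.321), C4-2 replicate 3 (-0.57, 0.0551) or any MR49F replicate (-0.52 to -0.61, 0.0753 to 0.122).

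BCL2L13, a mitochondrial relative that takes part in mitophagy, averaged 89 CPM in MR49F, 112 CPM in C4-2 and 131 CPM in LNCaP. It fell by 0.56 on the log2 scale in MR49F (edgeR adjusted p = 4.88e-06) and by 0.23 in C4-2 (0.0176), and the call in C4-2 was lost without C4-2 replicate 3 (-0.19, 0.0731) or LNCaP replicate 2 (-0.21, 0.0716), and in 4 of 19 alternatives in all. BCL2L12 averaged 10.8 CPM in MR49F, 19.9 CPM in C4-2 and 16.1 CPM in LNCaP. Its log2 fold change was -0.58 in MR49F (edgeR adjusted p = 0.00347) and 0.34 in C4-2 (0.043), and the call in C4-2 was lost in 12 of 19 alternatives, among them without C4-2 replicate 1 or 3, LNCaP replicate 1 or 2, or MR49F replicate 2 or 3 (0.18 to 0.35, 0.0533 to 0.29). IRF3 overlaps 33.1% of the exon length of BCL2L12 on the other strand. BCL2L14 averaged 0.561 CPM in MR49F, 2.65 CPM in C4-2 and 0.426 CPM in LNCaP, and BNIP3 and BNIP3L, the mitophagy receptors, rose in C4-2 against LNCaP by 1.22-fold and 1.24-fold (edgeR adjusted p 0.00556 and 0.00197). In MR49F against LNCaP they missed the threshold with all libraries (0.17, 0.0954 and -0.15, 0.133), and BNIP3 passed without C4-2 replicate 1 (0.17, 0.0374) and BNIP3L without MR49F replicate 3 (-0.21, 0.0306). Of 19 alternatives in all, BNIP3 passed in 1 and BNIP3L in 3.

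Caspase and apoptosome genes act downstream of the mitochondrion. Of 15 genes, 6 rose and none fell in MR49F against LNCaP (median log2 fold change 0.14, against 0.01 over all genes), 5 rose and 2 fell in C4-2 against LNCaP (0.14 against 0.00), and 5 were higher and 4 lower in MR49F against C4-2 (0.14 against 0.00). These 6, 7 and 9 calls stand beside 47.0%, 49.7% and 61.0% of all tested genes called. CASP10, an initiator caspase of death receptors, averaged 4.15 CPM in MR49F, 10.6 CPM in C4-2 and 1.37 CPM in LNCaP. It was 3-fold higher in MR49F than in LNCaP (edgeR adjusted p = 2.81e-05) and 7.72-fold higher in C4-2 than in LNCaP (3.09e-10). ENDOG and AIFM1, mitochondrial proteins that act on DNA after release, were 1.71-fold and 1.36-fold higher in MR49F than in LNCaP (edgeR adjusted p 5.18e-05 and 0.000131). SPOUT1 overlaps 39.2% of the exon length of ENDOG on the other strand, so the counts of ENDOG are uncertain unless counting used strand. CYCS, the gene of cytochrome c, had the highest level of the list, at 513 CPM in MR49F, 399 CPM in C4-2 and 433 CPM in LNCaP. Its increase in MR49F against LNCaP (log2 fold change 0.24, edgeR adjusted p = 0.0196) was lost without MR49F replicate 3 (0.15, 0.147) or any LNCaP replicate (0.22 to 0.24, 0.0705 to 0.0866), and in 6 of 19 alternatives in all. DFFA, the inhibitor of the caspase-activated DNase, was 1.31-fold lower in C4-2 than in LNCaP (edgeR adjusted p = 0.000536).

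Among the inhibitors of apoptosis, BIRC3, a ubiquitin ligase induced by NF-kB, had the lowest p in each comparison. BIRC3 averaged 5.38 CPM in MR49F, 63.3 CPM in C4-2 and 31.7 CPM in LNCaP. It was 5.88-fold lower in MR49F than in LNCaP (edgeR adjusted p = 1.8e-12) and 1.98-fold higher in C4-2 than in LNCaP (5.92e-08), and 11.6-fold lower in MR49F than in C4-2 (1.99e-15). Of the 5 genes of this list, BIRC3 alone passed in MR49F against LNCaP (47.0% of all tested genes were called), where XIAP, BIRC2 and BIRC6 had log2 fold changes of 0.25, -0.23 and 0.19 (edgeR adjusted p 0.0854, 0.0845 and 0.267). XIAP passed without C4-2 replicate 1 (0.25, 0.00219) or replicate 2 (0.23, 0.0348), BIRC2 without either of these (-0.23, 0.0231 and -0.25, 0.0311) or MR49F replicate 3 (-0.38, 0.00885), and BIRC6 without C4-2 replicate 1 (0.19, 0.0123). Of 19 alternatives in all, XIAP passed in 3, BIRC2 in 6 and BIRC6 in 2. In C4-2 against LNCaP, 2 rose (BIRC3 and BIRC5) and 2 fell, namely BIRC2 (1.3-fold) and BIRC6 (1.44-fold), where 49.7% of all tested genes were called. Between MR49F and C4-2, 2 were higher in MR49F (BIRC6 and XIAP) and 1 was lower (BIRC3), where 61.0% of all tested genes were called. The C4-2 libraries differed widely from each other for BIRC6 (80 to 138 CPM) and XIAP (88.6 to 137 CPM).

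Of 12 death receptor pathway genes, 2 rose and 6 fell in MR49F against LNCaP, where 24.1% of all tested genes rose and 22.8% fell. In C4-2 against LNCaP, 5 rose and none fell, where 26.2% of all tested genes rose and 23.5% fell. In MR49F against C4-2, 2 were higher and 8 lower, where 29.9% of all tested genes were higher and 31.1% lower. The median log2 fold change of the list was -0.37, 0.18 and -0.39, against 0.01, 0.00 and 0.00 over all tested genes. FAS, the receptor of FAS ligand, averaged 6.33 CPM in MR49F, 16.8 CPM in C4-2 and 14.7 CPM in LNCaP, and was 2.33-fold lower in MR49F than in LNCaP (edgeR adjusted p = 1.51e-06). TNFRSF21, death receptor 6, averaged 22 CPM in MR49F, 93.6 CPM in C4-2 and 41.1 CPM in LNCaP, 1.87-fold lower in MR49F than in LNCaP (edgeR adjusted p = 1.78e-07) and 2.27-fold higher in C4-2 than in LNCaP (5.38e-10). TNFRSF10B, a receptor of TRAIL and the gene of highest level in the list, averaged 356 CPM in MR49F, 255 CPM in C4-2 and 261 CPM in LNCaP, and was 1.37-fold higher in MR49F than in LNCaP (edgeR adjusted p = 2.02e-05). TNFSF10, which encodes TRAIL itself, had 0 counts over the 3 MR49F libraries, 576 over the C4-2 libraries and 7 over the LNCaP libraries, which are groups of unequal depth. Scaled for depth, it averaged 10.1 CPM in C4-2 and 0.305 CPM in LNCaP, 35.3-fold higher in C4-2 (edgeR adjusted p = 1.09e-09). With so few LNCaP counts the size of that fold is imprecise. Its log2 value ran from 4.49 to 6.39 over the alternatives. With a floor of 3 counts over the MR49F group, TNFSF10 was at least 89.1-fold lower in MR49F than in C4-2, whose counts were taken as observed. Against LNCaP the same floor gave 2.41-fold lower in MR49F. That value is no firm bound, because LNCaP libraries ranged from 0 to 0.689 CPM and overlapped MR49F. TNFSF10 is among the 6 genes that fell in MR49F against LNCaP (edgeR adjusted p = 0.0225), and its call rests on these few counts. CFLAR, which encodes the caspase-8 inhibitor FLIP, averaged 52 CPM in MR49F, 94.9 CPM in C4-2 and 76 CPM in LNCaP. Its increase in C4-2 against LNCaP (log2 fold change 0.31, edgeR adjusted p = 0.00806) was lost without C4-2 replicate 3 (0.24, 0.0515), and in 2 of 19 alternatives in all.

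Among 14 regulators of BCL2 family genes and proteins, 5 rose and 2 fell in MR49F against LNCaP, 3 rose and 4 fell in C4-2 against LNCaP, and 4 were higher and 2 lower in MR49F against C4-2. These 7, 7 and 6 calls stand beside 47.0%, 49.7% and 61.0% of all tested genes called. DYNLL1, a dynein light chain that BMF and BIM bind, was 1.35-fold higher in MR49F than in LNCaP (edgeR adjusted p = 0.000696), and VDAC2, a mitochondrial channel that holds BAK, was 1.42-fold higher (0.000985). DYNLL2, named here as the other dynein light chain of the list, went the other way. It was 1.21-fold lower in MR49F than in LNCaP (edgeR adjusted p = 0.0123) and 1.29-fold lower in C4-2 than in LNCaP (0.00113). USP9X, a deubiquitinase of MCL1, averaged 252 CPM in MR49F, 155 CPM in C4-2 (range 124 to 184) and 197 CPM in LNCaP. HUWE1, a ubiquitin ligase of MCL1, averaged 551 CPM in MR49F, 345 CPM in C4-2 (range 292 to 397) and 457 CPM in LNCaP. YWHAZ and YWHAE encode 14-3-3 proteins, which retain phosphorylated BAD in the cytosol. YWHAZ averaged 679 CPM in MR49F, 947 CPM in C4-2 and 603 CPM in LNCaP, 1.57-fold higher in C4-2 than in LNCaP (edgeR adjusted p = 6.26e-07), and YWHAE averaged 1040 CPM, 829 CPM and 892 CPM in the same order of lines. PIM1, a kinase of BAD, was 2.04-fold higher in C4-2 than in LNCaP (edgeR adjusted p = 0.000195). The calls of USP9X and YWHAE in MR49F against LNCaP (0.36, 0.00771 and 0.22, 0.0128) were lost without LNCaP replicate 3 (0.30, 0.0502 and 0.18, 0.1), and that of YWHAE also without LNCaP replicate 1 (0.22, 0.0586). Of 19 alternatives in all, the call was lost in 2 for USP9X and in 5 for YWHAE.

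**Figure D4:**
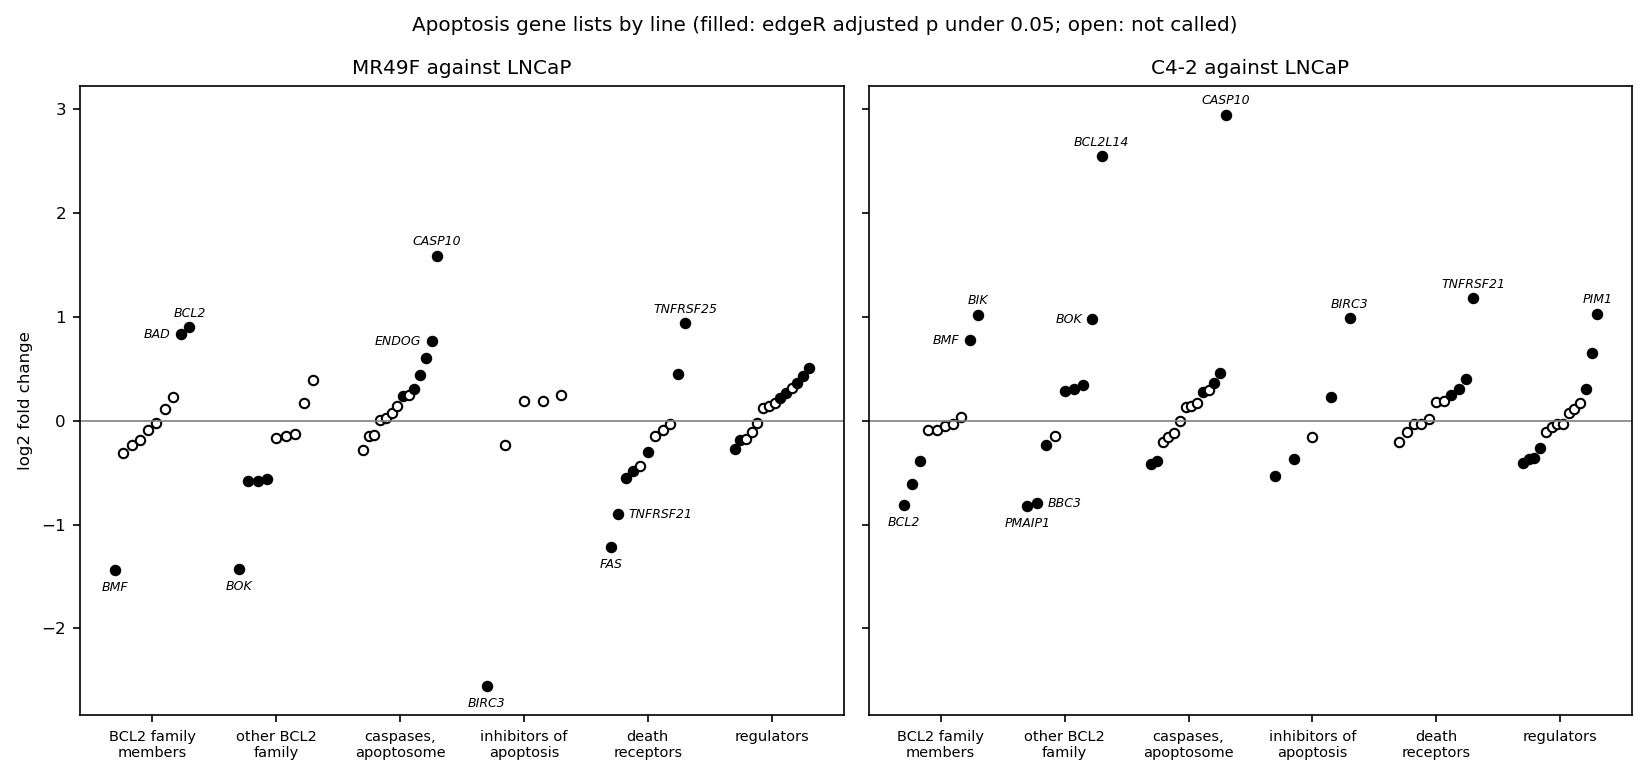
Log2 fold change of tested genes of 6 apoptosis lists for MR49F against LNCaP (left) and C4-2 against LNCaP (right); filled points have an edgeR adjusted p under 0.05, open points do not, and called genes beyond 0.75 are named. TNFSF10, which had no count in MR49F, is left out. BMF, BOK and BIRC3 lie under 0 in the left panel and above 0 in the right panel.

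Genes whose pattern over the 9 libraries lay nearest to a given member were found by the root mean square difference of centred log2 CPM, among 10331 or 10332 genes with a symbol and a mean of at least 10 CPM. Nearest to BMF were APP (0.0983), DRAM1 (0.116) and ZNF385B (0.119). APP averaged 133 CPM in MR49F, 550 CPM in C4-2 and 367 CPM in LNCaP. Nearest to BCL2 were UTP14A (0.113), GPRASP3 and AADAT (0.132 each), with AADAT at 266 CPM in MR49F, 92.5 CPM in C4-2 and 157 CPM in LNCaP. Nearest to BAD were EPB41L4A-AS1 (0.157), MRPL12 (0.174) and MZT2B (0.184), with EPB41L4A-AS1 at 59.4 CPM in MR49F, 20.3 CPM in C4-2 and 32 CPM in LNCaP. None of these genes belongs to the lists above.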

How the data were processed

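RNA was prepared with a stranded TruSeq kit and read on a HiSeq2500, per the labels' protocols, after poly(A) selection, per the series' design text. The deposited values are the authors' raw counts, 1 whole number for each Ensembl gene and library. Tools listed in the submitters' processing notes, without their roles, are HTSeq 0.6.1, TopHat2, edgeR 3.12.1 and FastQC 0.11.3, with GRCh38 as the build. Neither the annotation nor the strand setting of the counting is given in the sources used here, so overlapping genes may have shared or lost reads. Of the table's columns, 9 matched sample titles, and 3 others matched none and were not used.

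Counts were tested with the quasi-likelihood test of edgeR 4.0.16 in R 4.3.3 (robust fit, TMM scaling, filterByExpr by line), with 1 mean per line over 9 libraries, no covariates and 6 residual degrees of freedom. Genes with a Benjamini-Hochberg adjusted p under 0.05, taken over the 15407 genes tested, are called. The common biological coefficient of variation was 0.0817. SEs are the absolute log2 fold change over the square root of F. CPM uses TMM-scaled library sizes, and CPM per kb divides by the exon union in GENCODE 29 (GRCh38), which held 57388 of the 57992 IDs. A bound for a gene without counts uses a floor of 3 counts over the group without counts. It covers counting error of that group only, and takes the counts of the other group as observed. The lowest library total, 6990461, limits the precision of genes of a few CPM.

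The members and lists were chosen with earlier results of these data known. The rule for named genes takes all members, all tested genes of the other BCL2 family list, the 3 lowest adjusted p-values per comparison and the highest mean CPM of each other list, and the 3 genes nearest to each of the 3 members with the lowest p. Of the genes this rule names, 1 is not reported here and is left out of the plot of apoptosis lists. Replicate numbers did not pair the libraries. The alternatives were DESeq2 1.42.0, voom of limma 3.58.1, library totals only, RLE scaling, a filter of 1 CPM in 3 libraries, no count filter, a replicate block, only the 6 libraries compared, a test against a 1.5-fold change, C4-2 replicate 1 thinned to 17.6% of its counts, and each library left out. Sums with other genes of each role added were chosen after seeing the data.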

Additional observations from a re-analysis of the deposited data

How the results depend on the processing

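In MR49F against LNCaP, the count of genes lowered among the 10 was 2 in place of 1 under RLE scaling, voom, the replicate block, no count filter, a filter of 1 CPM in 3 libraries and only the 6 libraries compared, because MCL1 passed, and 3 under library totals only, because BAK1 passed as well. It ranged from 1 to 2 with single libraries left out. Library totals only shifted the median of all genes to -0.08 and the share of higher genes among those called to 40%, against 51.4%. In MR49F against C4-2, the count raised was 2 in place of 4 with no count filter, and ranged from 2 to 4 with single libraries left out. A test against a 1.5-fold change called 2125 genes in MR49F against LNCaP, 2121 in C4-2 against LNCaP and 3398 in MR49F against C4-2, against 7235, 7658 and 9392. Under it 1 of the 10 genes was raised in MR49F against LNCaP, 1 raised and 0 lowered in C4-2 against LNCaP, and 2 raised in MR49F against C4-2. Some differences that passed no test changed sign. With single libraries left out, BCL2L1 ranged from -0.05 to 0.01, PMAIP1 from -0.25 to 0.00 and BCL2L14 from -0.29 to 0.89 in MR49F against LNCaP. In C4-2 against LNCaP, BCL2L2 was at -0.03 under library totals only, and with single libraries left out BCL2L11 ranged from -0.20 to 0.05 and BAK1 from -0.10 to 0.03. In MR49F against C4-2, BAX was at 0.00 under DESeq2 and the replicate block, 0.01 with C4-2 replicate 1 thinned, and from -0.13 to 0.17 with single libraries left out. Same-numbered libraries did not deviate together (correlations -0.08 to 0.06), and the replicate block called 7115, 7460 and 9261 genes. The causes of the other changes were not tested. Counts behind BCL2L14 were few, with 15 over the MR49F libraries and 11 over the LNCaP libraries.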
